A study of Aspergillus nidulans with 12 samples.

Results

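The genes described here were lowest in Aspergillus nidulans cultures of a strain labelled as a rimO deletion, harvested late, after glucose had run out. They were chosen by their own levels. Counts were scaled to CPM (a gene's reads per 1000000 counted reads of its library), and the 2 cultures of each group were averaged. A gene was a member when each of the 5 other groups averaged at least 5 CPM and the late deletion group averaged at most 1/3 of the lowest of those 5. Of 10681 genes, 6444 met the floor of 5 CPM and 37 met both conditions. The levels that made the choice are given as a description, and no test is made of them.

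The groups came from 3 strains, each harvested late and at 17 h, with 2 cultures per group. They are the strain labelled as the rimO deletion (drim2.4; late harvest 54 h), the one labelled as overexpressing rimO (Oegr; 48 h) and wild type (A1153; 48 h). The medium, a liquid minimal one at 37 °C, held glucose (50 mM) as carbon source and nitrate (10 mM) as nitrogen source, and poly(A) RNA was sequenced. The labels place the late harvests 8 h after glucose depletion, and the deletion strain, which took up glucose more slowly, was collected 6 h later than the others, so strain and hour cannot be told apart in that group. The labels name 1 strain per genotype and do not give the promoter behind the overexpression. Libraries held 9269951 to 17891416 counts.

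The label was checked on AN7572, taken for rimO from general knowledge because neither the files nor the reference gene table name it. AN7572 had 55.9 and 51 CPM in 54 h deletion, against 54.7 and 59.7 CPM in 17 h deletion, 376 and 427 CPM in 48 h overexpression, 536 and 462 CPM in 17 h overexpression, 500.4 and 502 CPM in 48 h wild type and 86.1 and 92.2 CPM in 17 h wild type libraries. The libraries labelled deletion still held reads of it at both harvests. At 17 h they were lower than wild type by an edgeR log2 change of -0.71 (adjusted p = 0.00305). The libraries labelled overexpression were higher than wild type at 17 h (2.38, adjusted p = 7.64e-10) and lower at 48 h (-0.38, adjusted p = 0.0047), so strains are called by their labels throughout. Transcript levels per culture are averages over all its cells, and fewer cells carrying a transcript cannot be told apart from less of it per cell.

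RimO is named in the series title as a homolog of yeast Rim15p, a protein kinase that acts below nutrient-sensing kinases and prepares cells for starvation and quiescence. Filamentous fungi commonly turn to secondary metabolism and to spore formation when sugar is exhausted. The genes for one secondary metabolite usually lie side by side on a chromosome. Emericellamides, the best represented product among the members, are lipopeptides that combine a polyketide chain with a short peptide ring. Their synthesis uses a polyketide synthase, a nonribosomal peptide synthetase and enzymes that pass the chain from one to the other.

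Across the 37 members the late deletion mean was 2.4% to 33.3% of the lowest other group mean, with a median of 23.9%. For all 6444 genes at the floor the median was 138%. This ratio of CPM spread widely over the members. In 10 members the late deletion mean was under 10% of the lowest other mean, in 3 it was between 10% and 20%, and in 24 it was above 20%. Gaps lay between AN10478 at 12.3% and AN5028 at 21.2%, and between AN2547 at 4.97% and AN8609 at 8.3%. The members are therefore not divided into sets by these gaps. Both late deletion libraries lay below all 10 other libraries for 37 of 37 members and for 22.3% of the 6444 genes, a separation that the choice of members largely fixes. The summed level of the 37 genes was 526 and 657 CPM in the 54 h deletion libraries and 3772 to 6063 CPM in the 10 others.

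**Figure D1:**
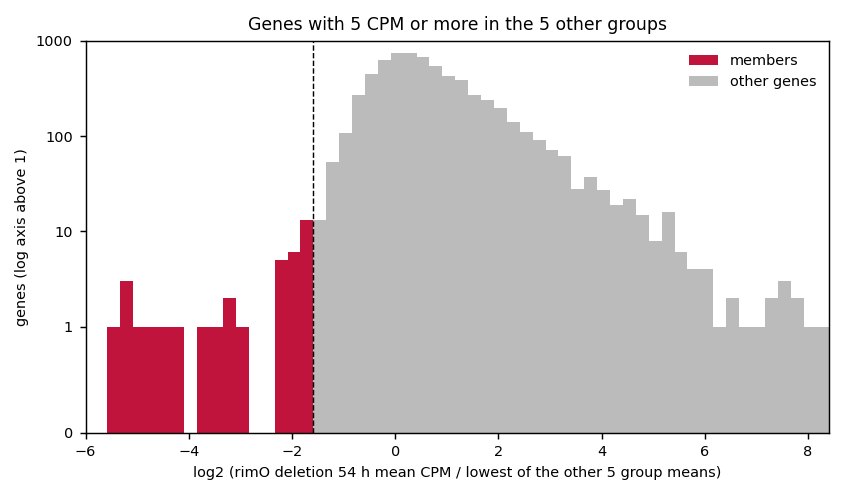
Histogram of the ratio of the 54 h deletion mean to the lowest of the 5 other group means, on a log2 axis, for the 6444 genes with 5 CPM or more in those 5 groups (y axis, number of genes, logarithmic above 1). Members are red, the dashed line is the threshold of 1/3, and a gap, not the only one, separates the 13 members at or under 12.3% from the 24 others.

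The 2 late deletion cultures were close to each other. The higher of them exceeded the lower by a median of 1.22 times, and by no more than 1.5 times in 32 of 37 members. Some of these levels rest on few reads. AN5046 and AN7989 had 5 and 3 counts each in the 2 late deletion libraries, for a pooled level of 0.249 CPM with an exact 95% Poisson interval of 0.108 to 0.491 CPM, which covers counting error only. In the other 10 libraries no member had fewer than 46 counts.

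Among the 5 other groups the members were not uniform. The highest of those 5 means exceeded the lowest by 1.16 to 42 times, with a median of 2.28 against 2.2 for all genes at the floor. The highest level was in the 17 h deletion group for 12 members, in 48 h wild type for 9, in 48 h overexpression for 8, in 17 h overexpression for 7 and in 17 h wild type for 1. The order of these groups is often narrow. By edgeR's test at an adjusted p under 0.05, 0 of the 37 members were higher in 17 h deletion than in 17 h wild type, beside 0.362% of all genes. At an unadjusted p under 0.05, 6 of 37 (16.2%) passed in either direction, beside 11.8% of all genes.

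**Figure D2:**
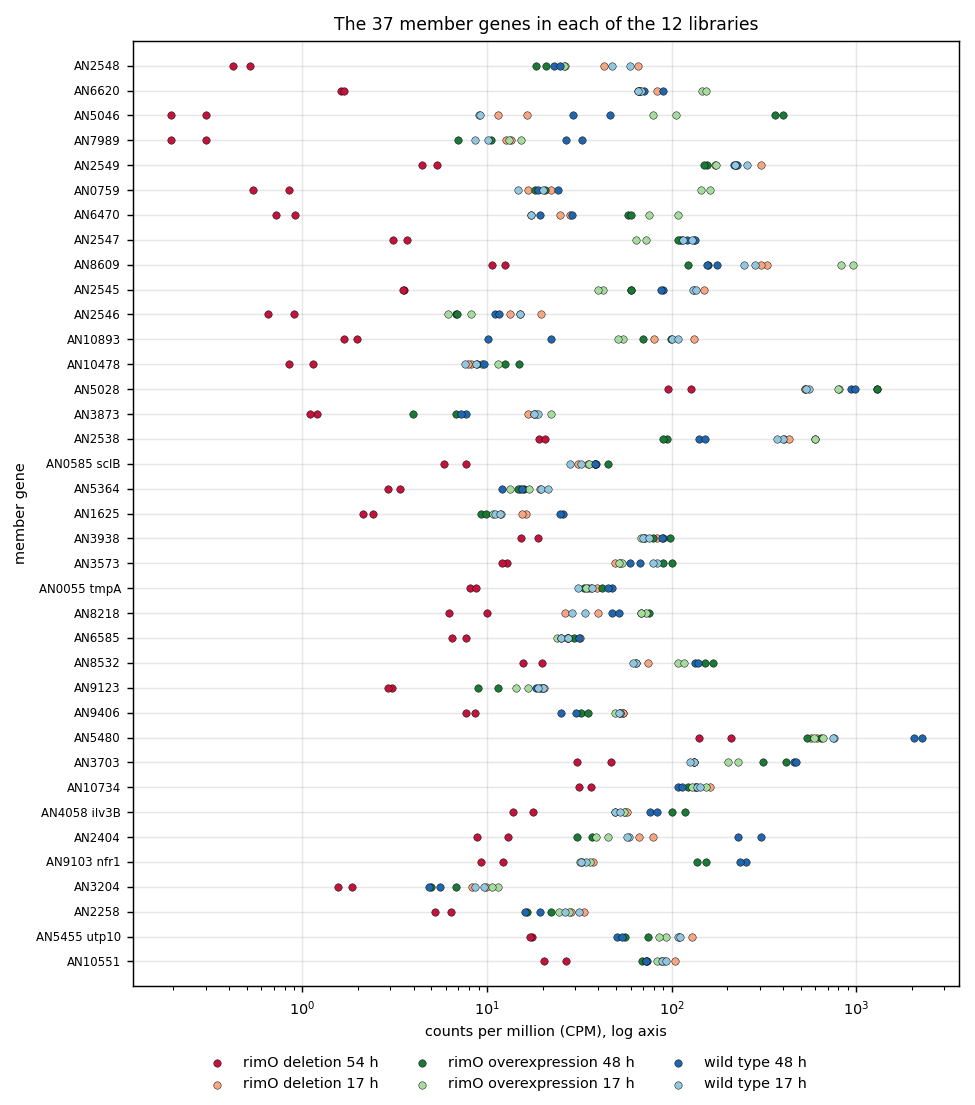
Level of each of the 37 members (rows, ordered from the lowest to the highest ratio of late deletion to the lowest other group) in each of the 12 libraries, in CPM on a log axis. Each point is 1 culture. The 2 red points of the 54 h deletion libraries lie left of the other 10 in every row, by a margin that mostly narrows from the upper rows to the lower ones.

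The 5 neighbouring genes from AN2545 to AN2549 were the only members adjacent to another member in the gene order of the reference table, and the other 32 had none beside them. AN2545, AN2547, AN2548 and AN2549 are the 4 entries of the emericellamide list, which was drawn up from general knowledge and holds no other gene. The list was chosen with earlier results of these data known, so the match of 4 of 4 is a description only. AN2546 lies between these genes and is in no list. Their late deletion means were between 2.4% and 11.3% of the lowest other group.

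AN2548 had 0.421 and 0.518 CPM in 54 h deletion, against 66.1 and 42.7 CPM in 17 h deletion, 20.8 and 18.3 CPM in 48 h overexpression, 26.5 and 26.2 CPM in 17 h overexpression, 23.2 and 24.7 CPM in 48 h wild type and 59.3 and 47.5 CPM in 17 h wild type libraries. AN2549 had 5.35 and 4.47 CPM in 54 h deletion, against 307 and 224 CPM in 17 h deletion, 156 and 150.4 CPM in 48 h overexpression, 171 and 173 CPM in 17 h overexpression, 226 and 217 CPM in 48 h wild type and 256 and 221 CPM in 17 h wild type libraries. In both genes the late deletion libraries stood far below all others, and both 17 h wild type libraries lay above both 48 h overexpression libraries. The levels of AN2547 were 3.67 and 3.11 CPM in 54 h deletion, against 132 and 114 CPM in 17 h deletion, 111 and 109 CPM in 48 h overexpression, 72.6 and 63.8 CPM in 17 h overexpression, 122 and 133 CPM in 48 h wild type and 129 and 115 CPM in 17 h wild type libraries. For AN2545 the libraries held 3.55 and 3.5 CPM in 54 h deletion, against 133 and 150.4 CPM in 17 h deletion, 60.0 and 60.0 CPM in 48 h overexpression, 42.4 and 39.7 CPM in 17 h overexpression, 89.2 and 87.9 CPM in 48 h wild type and 131 and 135 CPM in 17 h wild type libraries. AN2547 varied little among 4 of the groups and was lower in 17 h overexpression, where AN2545 also had its lowest level outside late deletion. The intervening AN2546 had 0.902 and 0.647 CPM in 54 h deletion, against 19.6 and 13.3 CPM in 17 h deletion, 6.82 and 6.9 CPM in 48 h overexpression, 8.2 and 6.15 CPM in 17 h overexpression, 11 and 11.6 CPM in 48 h wild type and 15.1 and 15.1 CPM in 17 h wild type libraries.

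Genes on either side did not share this profile. Before the run, AN2541, AN2542 and AN2543 averaged under 1 CPM in every group, and AN2544 had no reads in either deletion group or 17 h wild type but averaged 11 CPM in 48 h overexpression and 7.27 CPM in 48 h wild type. After it, AN2550 averaged under 1 CPM in every group. The next gene, AN10325, had no reads in late deletion and averaged under 1 CPM in the 17 h groups. It averaged 6.05 CPM in 48 h overexpression and 9.52 CPM in 48 h wild type. AN2538, another member, lies 7 genes away, and 2 of the genes between are not analysed here. Its levels were 19.1 and 20.6 CPM in 54 h deletion, against 407 and 432 CPM in 17 h deletion, 94.1 and 89.9 CPM in 48 h overexpression, 601 and 600.4 CPM in 17 h overexpression, 140.4 and 152 CPM in 48 h wild type and 399 and 374 CPM in 17 h wild type libraries, with both 17 h overexpression libraries highest and every 48 h library below every 17 h library.

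**Figure D3:**
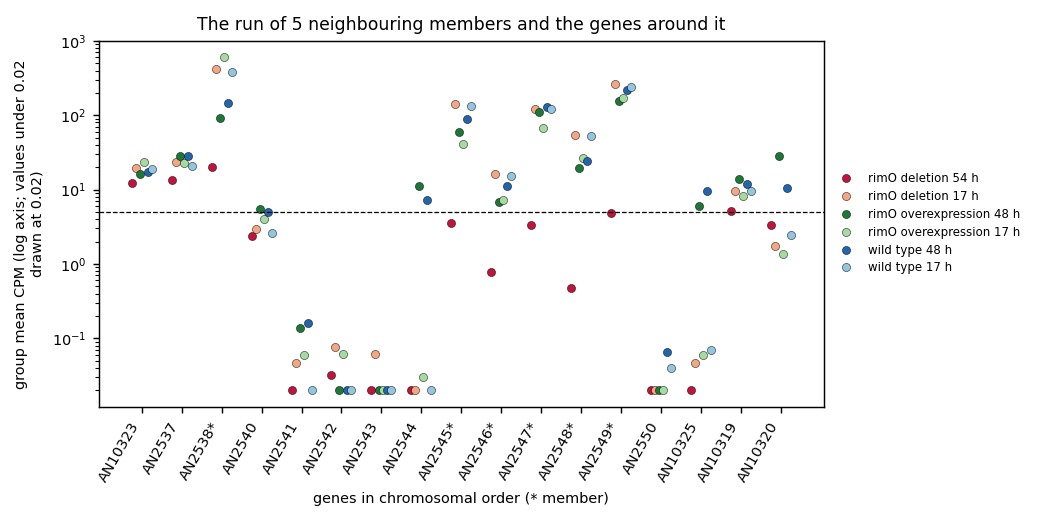
Group mean CPM (log axis, values under 0.02 drawn at 0.02) of the counted genes in chromosomal order around the run of neighbouring members, with 6 points per gene, one for each group, and the floor of 5 CPM as a dashed line. Asterisks mark members. The red points of the 54 h deletion group drop below all other groups over AN2545 to AN2549 and at AN2538, while of the counted genes between them AN2540 averages 2.41 to 5.46 CPM and the other 4 are near 0 in most groups.

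A further 8 members outside this run had late deletion means under 13% of the lowest other mean, and none carries a symbol in the reference table. AN6620 had 1.62 and 1.68 CPM in 54 h deletion, against 83 and 66.2 CPM in 17 h deletion, 67.6 and 65.5 CPM in 48 h overexpression, 147 and 154 CPM in 17 h overexpression, 70.7 and 90.0 CPM in 48 h wild type and 68.5 and 65.8 CPM in 17 h wild type libraries. AN0759 had 0.541 and 0.841 CPM in 54 h deletion, against 22.3 and 16.7 CPM in 17 h deletion, 20.7 and 18.1 CPM in 48 h overexpression, 144 and 161 CPM in 17 h overexpression, 18.9 and 24.3 CPM in 48 h wild type and 20.0 and 14.8 CPM in 17 h wild type libraries. Both were steady in 4 groups and stood highest in the 17 h overexpression libraries, with no overlap with the other groups. AN8609 was also highest there, at 10.6 and 12.6 CPM in 54 h deletion, against 327 and 303 CPM in 17 h deletion, 122 and 157 CPM in 48 h overexpression, 830.1 and 964 CPM in 17 h overexpression, 156 and 176 CPM in 48 h wild type and 285 and 247 CPM in 17 h wild type libraries. For AN6470 the values were 0.722 and 0.906 CPM in 54 h deletion, against 24.9 and 28.2 CPM in 17 h deletion, 57.9 and 60.5 CPM in 48 h overexpression, 75.4 and 108 CPM in 17 h overexpression, 19.4 and 28.8 CPM in 48 h wild type and 17.2 and 17.4 CPM in 17 h wild type libraries. In these 4 genes the late deletion libraries were the lowest and the 17 h overexpression libraries the highest of the 12.

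AN5046 spanned the widest range of all members, at 0.301 and 0.194 CPM in 54 h deletion, against 16.4 and 11.4 CPM in 17 h deletion, 364 and 399.7 CPM in 48 h overexpression, 79.5 and 105 CPM in 17 h overexpression, 29.3 and 46.4 CPM in 48 h wild type and 9.06 and 9.13 CPM in 17 h wild type libraries. Its overexpression libraries were above all other libraries at both harvests. AN7989 reached its highest level in late wild type, with 0.301 and 0.194 CPM in 54 h deletion, against 12.7 and 13.5 CPM in 17 h deletion, 6.93 and 10.6 CPM in 48 h overexpression, 15.3 and 13.2 CPM in 17 h overexpression, 32.6 and 26.6 CPM in 48 h wild type and 10.2 and 8.65 CPM in 17 h wild type libraries. In AN10893 late wild type was instead the lowest of the 5 other groups, and the values were 1.99 and 1.68 CPM in 54 h deletion, against 132 and 80.2 CPM in 17 h deletion, 99.6 and 70.1 CPM in 48 h overexpression, 54.4 and 51.5 CPM in 17 h overexpression, 10.1 and 22.2 CPM in 48 h wild type and 99.9 and 108 CPM in 17 h wild type libraries. AN10478 varied less, with its highest values in 48 h overexpression, at 1.14 and 0.841 CPM in 54 h deletion, against 8.16 and 7.91 CPM in 17 h deletion, 12.6 and 14.9 CPM in 48 h overexpression, 9.35 and 11.5 CPM in 17 h overexpression, 8.84 and 9.59 CPM in 48 h wild type and 8.71 and 7.55 CPM in 17 h wild type libraries.

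The reference table gives a symbol to 5 members. Of these, 2 act in development. The gene sclB (AN0585) encodes a zinc cluster transcription factor that promotes asexual spore formation and secondary metabolism, and it had 7.7 and 5.83 CPM in 54 h deletion, against 35.5 and 31.2 CPM in 17 h deletion, 45.1 and 38.5 CPM in 48 h overexpression, 38.5 and 35.7 CPM in 17 h overexpression, 39 and 38.2 CPM in 48 h wild type and 32.2 and 28.2 CPM in 17 h wild type libraries. The gene tmpA (AN0055) encodes a membrane flavoprotein involved in the start of conidiation, with 8.12 and 8.67 CPM in 54 h deletion, against 39.3 and 35.1 CPM in 17 h deletion, 33.5 and 41.9 CPM in 48 h overexpression, 36.8 and 34.2 CPM in 17 h overexpression, 47.3 and 45 CPM in 48 h wild type and 37 and 31.2 CPM in 17 h wild type libraries. Both were nearly level outside the late deletion cultures, where each stood at about the same share, 22.4% of the lowest other mean for sclB and 24.6% for tmpA.

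The next pair belongs to growth functions. In yeast, Utp10 is part of the complex that processes small-subunit ribosomal RNA, and utp10 (AN5455) had 17.6 and 17 CPM in 54 h deletion, against 109.9 and 128 CPM in 17 h deletion, 74.1 and 56 CPM in 48 h overexpression, 93.5 and 85.8 CPM in 17 h overexpression, 50.6 and 53.7 CPM in 48 h wild type and 109 and 111 CPM in 17 h wild type libraries. In yeast, Ilv3 is the dihydroxyacid dehydratase of branched-chain amino acid synthesis, and ilv3B (AN4058) had 13.8 and 17.7 CPM in 54 h deletion, against 56 and 57.4 CPM in 17 h deletion, 101 and 118 CPM in 48 h overexpression, 49.1 and 55.1 CPM in 17 h overexpression, 76.2 and 83.6 CPM in 48 h wild type and 49.3 and 52.3 CPM in 17 h wild type libraries. Outside late deletion, utp10 was higher in the 17 h libraries of every strain, whereas ilv3B was highest in the 48 h overexpression libraries. The fifth, nfr1 (AN9103), had 9.26 and 12.2 CPM in 54 h deletion, against 32.7 and 37.4 CPM in 17 h deletion, 138 and 154 CPM in 48 h overexpression, 36 and 31.8 CPM in 17 h overexpression, 252 and 236 CPM in 48 h wild type and 34.2 and 32.2 CPM in 17 h wild type libraries. Its late libraries exceeded the 17 h libraries in wild type and in overexpression.

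AN5028 is the only member in the sexual development and velvet list. It had 95.8 and 128 CPM in 54 h deletion, against 531 and 526 CPM in 17 h deletion, 1291 and 1298 CPM in 48 h overexpression, 806 and 792 CPM in 17 h overexpression, 932 and 986 CPM in 48 h wild type and 555 and 531 CPM in 17 h wild type libraries. The other 9 genes of that list did not meet the rule, and in 8 of them the late deletion mean was above the lowest other group mean, from 162% for veA to 788% for AN2059. The exception was AN6320, whose late deletion mean was 45.5% of the lowest other mean. The other 14 lists drawn up for this description held no member.

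AN5480 drew the most reads of all members in late wild type, with 140.1 and 209 CPM in 54 h deletion, against 569 and 614 CPM in 17 h deletion, 647 and 541 CPM in 48 h overexpression, 658 and 587 CPM in 17 h overexpression, 2266 and 2048 CPM in 48 h wild type and 759.9 and 746 CPM in 17 h wild type libraries. AN3703 had 30.6 and 47.2 CPM in 54 h deletion, against 132 and 133 CPM in 17 h deletion, 313 and 416 CPM in 48 h overexpression, 228 and 201 CPM in 17 h overexpression, 463 and 469.7 CPM in 48 h wild type and 132 and 126 CPM in 17 h wild type libraries. Late wild type was the highest group for both, with no overlap with any other group. Late wild type also stood apart in AN2404, which had 8.84 and 12.9 CPM in 54 h deletion, against 67 and 79.5 CPM in 17 h deletion, 37 and 30.6 CPM in 48 h overexpression, 45.3 and 38.7 CPM in 17 h overexpression, 305 and 229 CPM in 48 h wild type and 58.6 and 57.2 CPM in 17 h wild type libraries. AN1625 was likewise highest in late wild type, with 2.41 and 2.14 CPM in 54 h deletion, against 16.2 and 15.5 CPM in 17 h deletion, 9.22 and 9.82 CPM in 48 h overexpression, 11.9 and 10.8 CPM in 17 h overexpression, 25.9 and 25 CPM in 48 h wild type and 11 and 11.7 CPM in 17 h wild type libraries.

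The remaining members were lower by less than 5 times relative to their lowest other group. In AN3938, AN6585 and AN10734 the means of the 5 other groups differed by at most 1.35 times. In late deletion their means were 17.1 ± 2.55, 7.09 ± 0.867 and 34 ± 3.35 CPM (SD, n = 2), against 89.1 ± 0.333, 28.4 ± 4.45 and 111 ± 3.87 CPM in 48 h wild type. By edgeR's test AN10734 was still called lower at 48 h than at 17 h, in wild type (log2 change -0.76) and in overexpression (-0.51). AN10551, AN2258, AN3204, AN9406 and AN3873 were higher in the 17 h wild type cultures than in the 48 h ones, with AN9406 averaging 27.7 ± 3.71 CPM in the 48 h cultures and 52.2 ± 0.246 CPM in the 17 h cultures. In late deletion AN9406 averaged 8.15 ± 0.636 CPM. AN8532 and AN8218 were highest in overexpression, at 159 ± 11.6 and 71.8 ± 5.34 CPM at 48 h, against 17.8 ± 2.91 and 8.11 ± 2.71 CPM in late deletion. AN5364, AN9123 and AN3573 completed the set, at 3.14 ± 0.322, 2.99 ± 0.11 and 12.5 ± 0.589 CPM in late deletion.

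Spore and conidiophore markers were followed because late cultures can sporulate. The summed level of brlA, abaA, wetA, rodA and dewA was 7.4 and 9.26 CPM in the 54 h deletion libraries, 4513 and 4625 CPM in 48 h overexpression, 1095 and 1767 CPM in 48 h wild type, and between 5.19 and 8.44 CPM in the 6 libraries of 17 h. Most of the sum in 48 h overexpression and 48 h wild type came from rodA, a spore wall hydrophobin, which averaged 4241 and 1218 CPM there. In late deletion rodA averaged 0.68 CPM. Levels of brlA averaged 3.51 CPM in late deletion, 293 CPM in 48 h overexpression and 195 CPM in 48 h wild type. The differences were smaller for abaA and wetA. Late deletion, 48 h overexpression and 48 h wild type averaged 2.73, 19.9 and 5.85 CPM for abaA and 0.752, 8.24 and 3.88 CPM for wetA. The marker dewA averaged 0.657 CPM in late deletion, 5.93 CPM in 48 h overexpression and 8.25 CPM in 48 h wild type. None of the 5 markers was at 0 in any library. The part of sporulation in the members' levels was not tested.

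The comparisons that follow are between groups other than late deletion, although the late deletion libraries enter the fit through its scaling and its estimate of spread. Changes are edgeR log2 fold changes ± SE (derived from the F statistic) from 1 quasi-likelihood fit of all 12 libraries, called where the Benjamini-Hochberg value over 9670 genes was below 0.05, and all 37 members were tested. The floor of 5 CPM and the ratio also bound how low a member can be in the groups compared. The total of members called in each comparison is therefore set beside the share of all genes and of the 6444 genes at the floor. Shares beside counts by direction, by size of change or within the lists are of all genes only, so that bound is not matched there. TMM scaling lowers a fitted change between harvests relative to the ratio of CPM, by 0.41 in wild type and 0.37 in overexpression on the log2 scale.

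The deletion strain was next set against wild type at 17 h, before glucose ran out. The rule used both of these groups and tends to leave out a gene already low in 17 h deletion, so little can be read from the count. Of 37 members 0 were higher and 1 was lower than in wild type, which is 2.7% against 1.66% of all genes tested and 1.78% of those at the floor. Of all genes, 0.362% were called higher and 1.3% lower. The members' median log2 change was 0.03, beside 0.02 over all genes. The called gene was AN3573, at 49.1 and 52.2 CPM in the deletion libraries and 83.1 and 78.8 CPM in wild type (log2 change -0.74 ± 0.09, adjusted p = 0.00135). The 5 genes of the AN2545 run lay between -0.06 and 0.08. At an unadjusted p under 0.05 there were 6 members, or 16.2%, beside 11.8% of all genes.

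The overexpression-labelled strain at 17 h departed from wild type in more members. Higher levels were called for 10 members and lower levels for 11, or 56.8% of the 37 in all, against 29.5% of all genes and 30.5% of those at the floor. Of all genes, 15.1% were called higher and 14.5% lower. The median was -0.09, beside 0.03 over all genes. Changes of at least 2-fold were called in 10 members and in 8.27% of all genes. All 5 genes of the AN2545 run fell, from -0.57 for AN2549 to -1.80 for AN2545 (± 0.09, adjusted p = 2.47e-09). AN10893 also fell (-1.07 ± 0.25, adjusted p = 0.00504).

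Outside the run, 6 members rose at least 2-fold in overexpression at 17 h. They were AN5046 (3.24 ± 0.21, adjusted p = 4.55e-08), AN0759 (3.02 ± 0.15, adjusted p = 5.21e-09), AN6470 (2.30), AN8609 (1.65), AN6620 (1.06) and AN8218 (1.05). Of these 6, 5 belong to the 13 of 37 members with the lowest late deletion ratios. So do all 4 members that fell at least 2-fold, AN2545, AN2546, AN2548 and AN10893. The rule used the 17 h overexpression level for that ratio, so nothing is read from this overlap. The smaller calls were less secure. AN2404, AN5364 and utp10 (AN5455) were not called without replicate 2 of 17 h overexpression or either 17 h wild type library (adjusted p = 0.0866 to 0.158, 0.059 to 0.195 and 0.0733 to 0.146). AN9123 was not called without replicate 1 of 17 h overexpression or either 17 h wild type library (adjusted p = 0.0818 to 0.156), AN3703 without replicate 1 of 17 h overexpression or replicate 2 of 17 h wild type (0.0561 to 0.0567), and AN5028 without replicate 2 of 17 h wild type (0.0557).

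At 48 h the overexpression-labelled strain had 8 members higher and 16 lower than wild type, or 64.9% of the 37, against 41.1% of all genes and 43% of those at the floor. Lower calls made up 43.2% of members, beside 18.1% of all genes, and higher calls 21.6%, beside 23%. The members' median was -0.11, beside 0.06. AN5046 was higher by 3.28 ± 0.18, adjusted p = 9.86e-09, and AN10893 by 2.35 ± 0.28, adjusted p = 1.26e-05. AN6470 was higher by 1.24.

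The lowest values at 48 h were AN2404 (-3.03 ± 0.17, adjusted p = 1.36e-08), AN5480 (-1.92 ± 0.16, adjusted p = 4.6e-07), AN7989 (-1.87 ± 0.18, adjusted p = 1.53e-06) and AN1625 (-1.48 ± 0.12, adjusted p = 3.23e-07). All 4 had late wild type as their highest group. In the AN2545 run, AN2545 (-0.62), AN2546 (-0.78) and AN2549 (-0.59) fell, and AN2548 was not called (-0.34, adjusted p = 0.141). AN2547 was called (-0.27, adjusted p = 0.0285), but leaving out any single library of either 48 h group ended the call (adjusted p = 0.0592 to 0.203).

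The other 9 calls at 48 h that depended on single libraries were the following. Without replicate 1 of 48 h overexpression or replicate 1 of 48 h wild type, tmpA (AN0055) and AN5028 were not called (adjusted p = 0.115 to 0.217 and 0.0607 to 0.0708). Without replicate 2 of 48 h overexpression or replicate 1 of 48 h wild type, AN10478 and ilv3B (AN4058) were not called (0.0948 to 0.0989 and 0.0644 to 0.0892). AN3873 and AN8218 lost their calls without replicate 1 of 48 h overexpression or either 48 h wild type library (0.061 to 0.486 and 0.0629 to 0.196). AN6620 lost its call without either 48 h overexpression library or replicate 2 of 48 h wild type (0.062 to 0.396). AN3703 lost it without any of 7 libraries (0.0505 to 0.315), all but both 54 h deletion, both 17 h overexpression and replicate 2 of 48 h overexpression, and AN8609 without any of 9 (0.051 to 0.399), all but both 17 h overexpression and replicate 2 of 48 h overexpression. Upper-quartile scaling ended the calls of AN2547, AN3703, AN6620 and AN8609 (adjusted p = 0.0755, 0.0733, 0.0629 and 0.106), RLE scaling that of AN8609 (0.0554), and DESeq2 that of AN10478 (0.055). A floor of 5 CPM in at least 2 libraries ended those of AN3703 and AN8609 (0.0511 and 0.06), and a fit of only the groups compared ended those of AN10478 and AN3873 (0.053 and 0.0948).

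**Figure D4:**
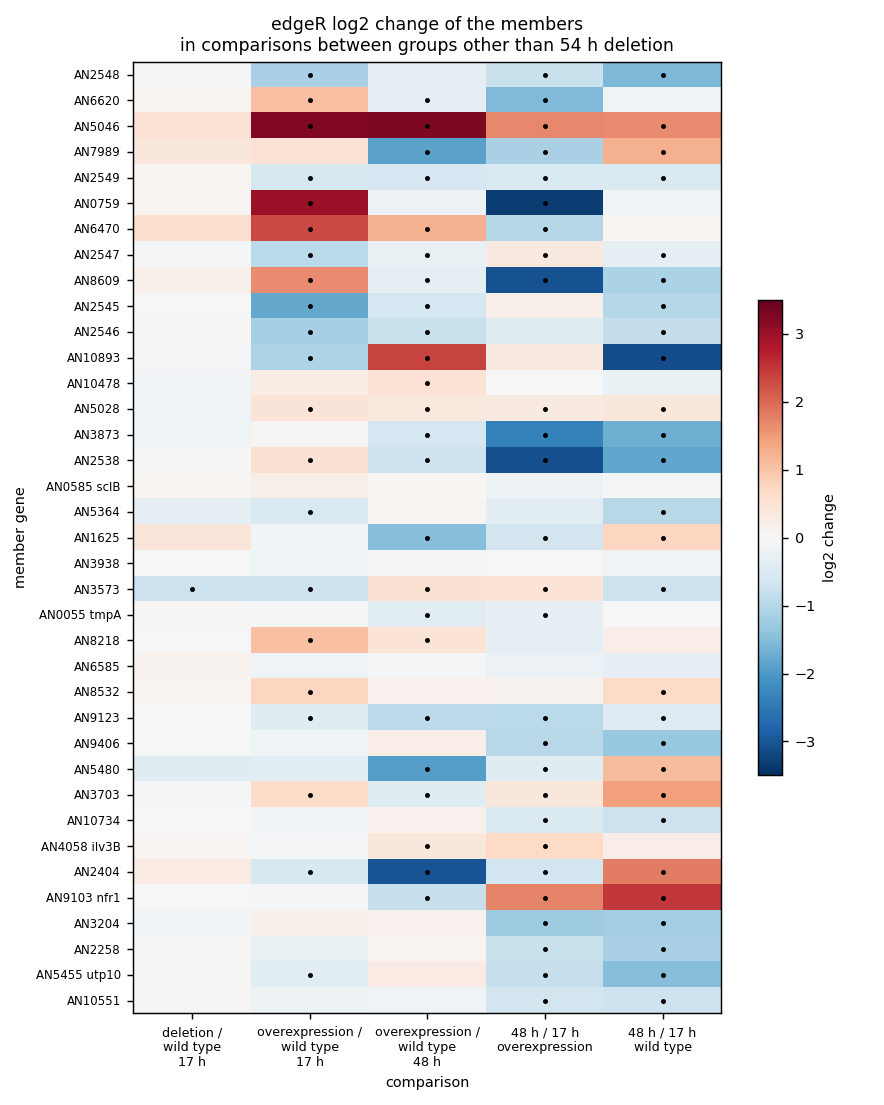
Fitted log2 change of each member (rows, in the same order as the plot of levels by library) in 5 comparisons between groups other than 54 h deletion, from blue (lower) to red (higher). A black dot marks an adjusted p under 0.05. The column of deletion against wild type at 17 h holds 1 dot, while the overexpression and harvest columns hold 21 to 27.

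The move from growth to glucose exhaustion was followed in wild type and in the overexpression-labelled strain. In wild type at 48 h 9 members were higher and 18 lower than at 17 h, or 73.0% in all, against 83.2% of all genes and 85.1% of those at the floor. Over all genes the shares were 40.3% higher and 43% lower. The median was -0.30, beside -0.04 over all genes and -0.29 over those at the floor. The largest rises were nfr1 (AN9103, 2.46 ± 0.12, adjusted p = 5.31e-11), AN2404 (1.80 ± 0.16, adjusted p = 9.75e-08) and AN5046 (1.64 ± 0.21, adjusted p = 4.38e-06). The largest falls were AN10893 (-3.10 ± 0.28, adjusted p = 8.73e-08), AN2538 (-1.81 ± 0.08, adjusted p = 3.06e-11) and AN3873 (-1.72 ± 0.18, adjusted p = 3.33e-07), and utp10 (AN5455) fell by 1.49. The developmental genes sclB (AN0585, -0.06, adjusted p = 0.636) and tmpA (AN0055, 0.02, adjusted p = 0.876) were not called.

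In the emericellamide list 4 of 4 genes were called lower in 48 h than in 17 h wild type, with a median of -0.76, where 43% of all genes were called lower and the median was -0.04. AN2548 fell by 1.57, AN2545 by 1.00 and AN2549 by 0.52. For AN2547 the fall was seen in the fitted change and not in CPM. Its CPM was 122 and 133 at 48 h and 129 and 115 at 17 h, which overlap, while the fitted change was -0.35 ± 0.09, adjusted p = 0.00226. It was not called with upper-quartile scaling (adjusted p = 0.124) or without replicate 1 of 48 h wild type (0.153). AN9123 (-0.45) was not called without replicate 2 of 48 h wild type (adjusted p = 0.117), with upper-quartile scaling (0.0685) or by DESeq2 (0.0588).

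In the overexpression-labelled strain 7 members were higher and 20 lower at 48 h than at 17 h, or 73.0% in all, against 81.8% of all genes and 83.5% of those at the floor. Over all genes they were 38.2% higher and 43.6% lower. The median was -0.44, beside -0.10 over all genes and -0.31 over those at the floor. AN0759 (-3.33 ± 0.16, adjusted p = 5.3e-11), AN2538 (-3.08 ± 0.09, adjusted p = 2.52e-13) and AN8609 (-3.06 ± 0.13, adjusted p = 1.3e-11) fell most. The largest rises were nfr1 (AN9103, 1.73 ± 0.12, adjusted p = 2.99e-09) and AN5046 (1.68 ± 0.17, adjusted p = 2.59e-07), and ilv3B (AN4058) rose by 0.69.

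Within the emericellamide list in overexpression, AN2548 (-0.78) and AN2549 (-0.54) fell, AN2545 was not called (0.18, adjusted p = 0.0738) and AN2547 rose (0.32). The rise of AN2547 was not called without replicate 2 of 17 h overexpression (adjusted p = 0.0775). AN5028 (0.33) was not called without replicate 1 of 48 h or replicate 2 of 17 h overexpression (0.0541 to 0.0674), and AN3703 (0.39) without replicate 2 of either harvest (0.176 to 0.318). AN5480 (-0.44) lost its call without replicate 2 of 48 h or replicate 1 of 17 h overexpression or either 48 h wild type library (0.0995 to 0.162). The call for tmpA (AN0055, -0.30) was lost without replicate 1 of either overexpression harvest, either 48 h wild type library or replicate 2 of 54 h deletion (0.134 to 0.291). RLE scaling, upper-quartile scaling and DESeq2 each ended the calls of tmpA (adjusted p = 0.241, 0.475 and 0.338) and of AN5480 (0.0923, 0.169 and 0.0594), and for tmpA so did a floor of 5 CPM in at least 2 libraries (0.0558) and a fit of only the groups compared (0.206).

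The late-minus-early change of overexpression was then tested against that of wild type. The difference was positive for 7 members and negative for 12, or 51.4% in all, against 28.9% of all genes and 31.8% of those at the floor. Over all genes 13% were positive and 15.9% negative. AN10893 differed most in the positive direction (3.43 ± 0.38, adjusted p = 1e-05); it fell in wild type and was not called in overexpression (0.33, adjusted p = 0.242). AN0759 (-3.21 ± 0.22, adjusted p = 1.62e-07), AN2404 (-2.46 ± 0.24, adjusted p = 3.53e-06) and AN7989 (-2.36 ± 0.25, adjusted p = 8.24e-06) differed most in the negative direction. In the AN2545 run the difference was called for AN2545 (1.18), AN2547 (0.67) and AN2548 (0.79), while AN2549 was at -0.02 (adjusted p = 0.948) and AN2546 at 0.39 (adjusted p = 0.304). The call for AN2548 was lost without replicate 1 of 48 h overexpression, replicate 2 of 17 h overexpression or replicate 1 of 17 h wild type (adjusted p = 0.0559 to 0.11).

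The sexual development and velvet list, which holds AN5028, has 10 genes. Between harvests 7 were higher and 1 lower in wild type and 7 higher and 2 lower in overexpression, so that 8 and 9 of 10 were called, near the 83.2% and 81.8% of all genes. In overexpression against wild type 7 were higher and 0 lower at 17 h, where 29.5% of all genes were called, and 6 were higher and 2 lower at 48 h, where 41.1% were. The difference between the strains' harvest changes was positive for 2 and negative for 4, beside 28.9% of all genes called. In the deletion strain at 17 h 0 of 10 were called, beside 1.66% of all genes, and the list's median was 0.14. AN5028 itself was higher in 48 h than in 17 h wild type (0.41 ± 0.11, adjusted p = 0.00352).

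Levels of different genes were compared per length with the authors' deposited table, which gives 1 log2 RPKM value per group. In the authors' deposited table the late deletion value was at most 1/3 of the lowest other group for 37 of 37 members, as ratios of RPKM, which come from the same reads that chose the members. The sizes differed. In the authors' deposited table the lowest other group exceeded late deletion 121 times for AN5046, 79.6 times for AN6620 and 70.5 times for AN2548, where the ratios of CPM were 36.7, 40.2 and 41.7, so the order of the members is that of CPM only. The gap after the 13 lowest members ran there from 12.6 times (AN2546) to 8.52 times (sclB, AN0585). By CPM it ran from 8.1 times (AN10478) to 4.73 times (AN5028). The most highly expressed member in the authors' deposited table was AN5480, at 7.92 log2 RPKM in late deletion and 11.91 in 48 h wild type. In the same deposited table the run had AN2549 at 0.48 in late deletion and 6.79 in 48 h wild type, AN2547 at -2.11 and 4.01, AN2548 at -2.91 and 3.65, and AN2545 at -3.51 and 1.98. Per length, AN2549 was thus the highest and AN2545 the lowest of these 4 in both groups.

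The limit of 1/3 cuts through a continuous range. The last members inside it were AN2258 at 33.0%, utp10 (AN5455) at 33.2% and AN10551 at 33.3% of the lowest other mean. The first genes outside it were AN4631 at 33.6%, AN0364 at 34.4% and AN7683 at 35.1%, with late deletion means of 3.1, 39.2 and 39.2 CPM. With another group in the place of late deletion, the same rule found 0 genes for 17 h deletion, 29 for 48 h overexpression, 5 for 17 h overexpression, 15 for 48 h wild type and 1 for 17 h wild type, beside the 37 for late deletion. These counts depend on how alike the groups are. Only 1.66% of all genes were called between 17 h deletion and 17 h wild type, which keeps both their counts low. The counts therefore do not measure how distinct late deletion is.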

How the data were processed

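Poly(A) RNA from duplicate cultures was sequenced. The tests set each difference against the spread between cultures, estimated over all 6 groups and with information shared across genes. With 1 strain per genotype they carry no variation between strains of the same genotype. Per the submitters' processing notes the tools were Trimmomatic, BWA, HTSeq, limma and edgeR, with no versions; the genome build and the strand setting are not given in the sources used here, and overlapping, antisense or near-identical genes may share reads. The authors' deposited table holds raw read counts per gene, and a second deposited table holds 1 log2 RPKM per gene and group. Of 10727 entries, 15 repeated identifiers with the same values and 31 upstream open reading frames (0.000199% of counts) were dropped. Symbols and gene order came from a RefSeq gene table (assembly ASM1142v1) in which 9970 genes were found.

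CPM is the count divided by the library's total. Counts were fitted with edgeR 4.0.16 in R 4.3.3 (TMM, filterByExpr, glmQLFit over 6 groups, glmQLFTest, Benjamini-Hochberg), with 1011 genes below the filter, a common biological coefficient of variation of 8.2% and 6 residual degrees of freedom; the steps were tested on simulated data. DESeq2 1.42.0, other scalings, filters, thresholds, a replicate block and left-out libraries were alternatives. Pearson's r between cultures over genes was 0.995 to 0.997 on log2(CPM + 0.5). All 37 members and the genes of the lists were named by rule. The members and lists were chosen with earlier results of these data known, and 19 of 96 list entries whose symbol differed in the reference table were left out.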

Additional observations from a re-analysis of the deposited data

Results flagged for a closer look

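For 19 members the change between harvests differed between the overexpression-labelled strain and wild type in the test of the difference itself (edgeR quasi-likelihood test, adjusted p under 0.05), against 28.9% of all genes. Each value is the log2 change from 17 h to 48 h in overexpression minus that in wild type. Negative differences were found for AN0759 (-3.21), AN2404 (-2.46), AN7989 (-2.36), AN8609 (-1.97), AN5480 (-1.54), AN1625 (-1.39), AN6620 (-1.39), AN2538 (-1.26), AN6470 (-1.07), AN3703 (-1.05), nfr1 (AN9103, -0.73) and AN8532 (-0.58).

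Positive differences were found for AN10893 (3.43), AN3573 (1.25), AN2545 (1.18), AN2548 (0.79), AN2547 (0.67), utp10 (AN5455, 0.67) and ilv3B (AN4058, 0.45). In 4 genes, AN7989, AN1625, AN2404 and AN3573, the change itself was called in opposite directions in overexpression and in wild type. So it was for AN5480 and AN2547, but less securely. The overexpression change of AN5480 was not called with RLE scaling (adjusted p = 0.0923), upper-quartile scaling (0.169) or DESeq2 (0.0594), nor without any of 4 libraries (0.0995 to 0.162; replicate 2 of 48 h and replicate 1 of 17 h overexpression and both 48 h wild type libraries). For AN2547 the wild type change was not called with upper-quartile scaling (0.124) or without replicate 1 of 48 h wild type (0.153), and the overexpression change not without replicate 2 of 17 h overexpression (0.0775). The difference for utp10 (AN5455) was not called without replicate 1 of 48 h overexpression (adjusted p = 0.0573), that for AN2548 without any of 3 libraries (adjusted p = 0.0559 to 0.11; replicate 1 of 48 h overexpression, replicate 2 of 17 h overexpression and replicate 1 of 17 h wild type), and that for ilv3B (AN4058) without any of 5 (adjusted p = 0.0614 to 0.137; replicate 2 of 48 h overexpression, replicate 1 of 17 h overexpression, replicate 1 of 48 h wild type and both 17 h wild type libraries).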

How the results depend on the processing

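The number of members followed the ratio: 128 genes at 1/2 of the lowest other group and 22 at 1/4, beside 37 at 1/3. It was 30 with a floor of 10 CPM, 48 with a floor of 1 CPM, 34 with TMM library sizes, of which 31 are among the 37, and 33 to 37 without 1 library. Without replicate 1 of 54 h deletion 30 of the 37 remained, and without replicate 1 of 48 h overexpression 33. In 17 h deletion against wild type, 3 members were called (1 higher, 2 lower) when only those groups were fitted, against 1 otherwise, and 1 without any 1 library. In 48 h overexpression against wild type, 15 were called at an adjusted p under 0.01, against 24 at 0.05. Without 1 library the members called numbered 26 to 29 in wild type with harvest, 25 to 31 in overexpression with harvest, 15 to 22 in overexpression against wild type at 17 h, 16 to 24 at 48 h and 17 to 20 for the difference between strains. No called change reversed under any setting run. Of 2664 values without 1 library, 77 lost and 43 gained a call, and of 1776 under other settings, 40 lost and 29 gained one.

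Replicate numbers followed the order in which the samples are listed. Over 15 pairs of groups the correlation of deviations was -0.318 to 0.291 and above 0.1 in 2, so these numbers showed no pairing common to all groups. The sign of each correlation depends on the numbering, so pairing between some groups was not settled. With the replicate block 28, 28, 1, 21, 24 and 19 members were called in wild type with harvest, overexpression with harvest, 17 h deletion, 17 h overexpression, 48 h overexpression and the difference between strains. RLE and upper-quartile scaling raised the median change of all genes by 0.10 and 0.19 in wild type and by 0.14 and 0.20 in overexpression between harvests (log2). Late deletion levels under 1 CPM, found in 7 members, rest on few reads.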
